A study of Rattus norvegicus with 8 samples.

Results

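The 4 control arrays gave the baseline of miRNAs in the exosome-rich fraction of rat serum. The controls were male Wistar rats, kept specific pathogen free, that had a sham operation and no reflux esophagitis, and they are named control 1 to control 4 after their labels. They are 4 of the 8 arrays of the series, and no comparison with reflux esophagitis was made. The labels give neither the age of the rats nor a day for the controls, which the study's text places at day 21. Vesicles were precipitated from serum with a polymer reagent (Exoquick), RNA was extracted with a column kit, and each sample was labelled with 1 dye and read on 1 array. The labels do not say whether each serum came from a separate rat, so the spread below is the spread between these samples. The array carries 719 rat miRNAs, and 192 of them (26.7%) were detected on all 4 control arrays. These 192 miRNAs, chosen by the detection mark of the scanner software and not by any difference, are described here.

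A miRNA is cut from a hairpin precursor that can give a 5p arm and a 3p arm, and usually 1 arm is kept in an Argonaute protein while the other is degraded. The kept arm pairs with messenger RNAs through its seed, the bases at positions 2 to 8, and lowers their translation and stability. Precursors that lie close together are often transcribed as a single host RNA. Serum carries miRNAs in exosomes, in protein complexes and in vesicles shed by blood cells, and precipitation from serum does not separate these fully. In such a bulk sample, fewer vesicles from a cell type and less RNA per vesicle cannot be told apart.

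The mature sequences of the 5 brightest miRNAs are shown because they set most of the signal described below. They are RefSeq sequences of the GRCr8 build, written from 5′ to 3′ with the seed in capitals.
miR-3473: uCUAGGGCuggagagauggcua
miR-3584-5p: gGGAGGAGuccaggaggc
miR-1224: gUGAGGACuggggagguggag
miR-451-5p: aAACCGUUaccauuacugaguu
miR-16-5p: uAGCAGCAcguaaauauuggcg
A sequence was found for 174 of the 192 miRNAs. The 3 brightest had a median G content of 55.6%, against 27.3% over the 174 miRNAs and 22.7% over the 407 sequences of miRNAs detected on no control array.

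The values are total signals per miRNA, an intensity in arbitrary units, background-subtracted and not scaled between arrays. Each miRNA is read by 20 spots, and an undetected miRNA is listed at 0.1. A signal depends on the probe as well as on the number of molecules, so the ranks and shares below describe brightness and not copy number. Controls 1 to 4 had 232, 232, 212 and 215 detected miRNAs. Their summed signals were 196318, 174683, 171963 and 267313, and control 4 was the brightest. The 192 miRNAs held between 99.7% and 99.9% of the signal of each array, a share largely set by counting undetected miRNAs as 0.1. The number of arrays limits the precision of every mean.

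By total signal, a group of 3 exosomal miRNAs outshone all others in every control. They kept ranks 1, 2 and 3 on all 4 arrays, though the mean levels of the first 2 changed order with normexp background correction. miR-3473 had a signal of 51662, 48606, 38229 and 56858 in controls 1 to 4, or 24.4% ± 3.16 (SD, n = 4) of all signal. miR-3584-5p had 42320, 35728, 37710 and 50949, or 20.7% ± 1.29 (SD, n = 4). miR-1224 had 22027, 18565, 21192 and 27048, or 11.1% ± 0.948 (SD, n = 4). Each differed by less than 1.5-fold between its lowest and highest control. The probes map to the rn4 build of the files, at chr13:40705754-40705768 for miR-3473, chr1:253307505-253307517 for miR-3584-5p and chr11:82536274-82536283 for miR-1224. In the GRCr8 annotation their genes lie within the bounds of Zranb3, Itprip and Vwa5b2, with strand not compared. Together the 3 held 59.1%, 58.9%, 56.5% and 50.4% of the signal, with the lowest share in control 4. Their seeds differ from one another, and no other of the 192 miRNAs with a sequence has any of the 3 seeds.

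Below these 3 the signal dropped 2.32-fold to the fourth miRNA. miR-451-5p, an erythroid miRNA that Argonaute 2 matures without Dicer, had 4921, 4975, 9097 and 19351 in controls 1 to 4. Controls 1 and 2 were nearly equal, and control 4 was 3.93-fold above control 1. miR-16-5p, which is abundant in blood cells and represses cell cycle genes, had 4521, 6232, 4914 and 9142. miR-92a-3p, the last miRNA of the miR-17-92 cluster, had 4088, 3351, 2511 and 10271, so that control 4 was more than double each of the others. The 5 brightest miRNAs held 63.7% ± 1.85 (SD, n = 4) of the signal and the 20 brightest held 82.3% ± 1.09 (SD, n = 4).

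**Figure D1:**
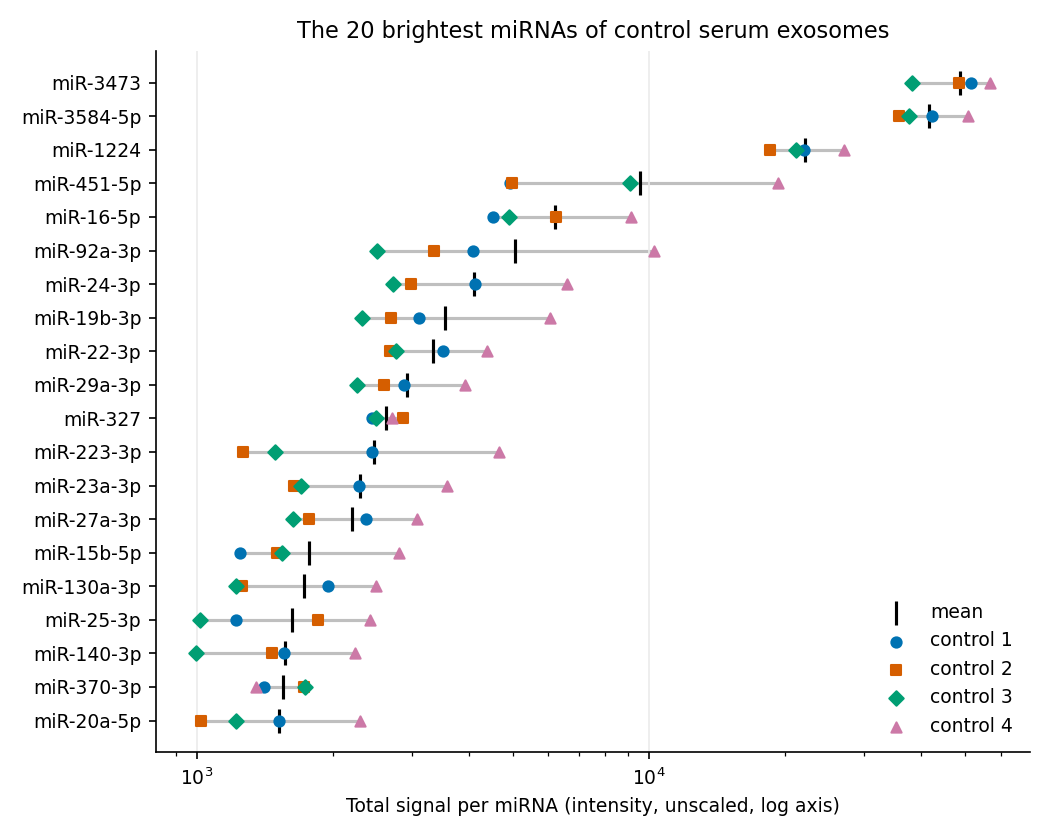
Total signal of the 20 brightest miRNAs (horizontal log axis, unscaled intensity) in controls 1 to 4 (symbols), with the mean as a black tick and a line from the lowest to the highest array. The first 3 miRNAs lie apart from the rest with little spread, and control 4 is the highest for 18 of the 20.

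Of the 20 brightest, 12 were 3p arms, 5 were 5p arms and 3 were listed without an arm. Ranks 7 to 20 were held by miR-24-3p, miR-19b-3p, miR-22-3p, miR-29a-3p, miR-327, miR-223-3p, miR-23a-3p, miR-27a-3p, miR-15b-5p, miR-130a-3p, miR-25-3p, miR-140-3p, miR-370-3p and miR-20a-5p, with means between 4110 and 1518. miR-29a-3p, which represses collagen genes, had 2882, 2599, 2267 and 3929, and its share of the signal was 1.44% ± 0.0789 (SD, n = 4). miR-223-3p, which shapes granulocytes, had 2437, 1265, 1488 and 4664, a 3.69-fold range. miR-327 had 2444, 2862, 2496 and 2700, and miR-370-3p, of the imprinted Dlk1-Dio3 region, had 1409, 1728, 1734 and 1350. These last were the pair of the 20 that were not highest in control 4. After division of each array by the 75th percentile of its 192 miRNA signals, which is meant by scaled below, control 4 was still highest for 16 of the 20. The same held for 40.6% of all 192 miRNAs.

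By mean signal, 25 miRNAs were above 1000, 72 were between 100 and 1000, and 95 were below 100. The brightest miRNA was 5970-fold above the dimmest. Ranks of the 192 miRNAs were alike across samples, with Spearman coefficients between 0.915 for controls 2 and 4 and 0.972 for controls 1 and 3, as a description over miRNAs that share probes and arrays. The 5 dimmest were miR-339-3p, miR-674-3p, miR-125b-1-3p, miR-292-5p and miR-505-3p, with means between 11.3 and 8.18. miR-505-3p, the last of them, had 5.95, 7.13, 4.81 and 14.8, where the lowest signal of any detected miRNA was between 3.29 and 4.02.

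The limit of detection on all 4 arrays did not follow the mean signal strictly. A further 21 miRNAs were detected on 3 control arrays, 14 on 2 and 32 on 1, and 460 were detected on none. The 5 brightest of the 21 were miR-667-3p, miR-382-5p, miR-466b-2-3p, miR-7a-5p and miR-338-3p. miR-667-3p had 19.7, 19.0 and 17.7 in controls 1 to 3 and was not detected in control 4. miR-382-5p, of the Dlk1-Dio3 region, had 33.5, 9.79 and 8.72 and was also missing from control 4. miR-7a-5p had 7.62, 15.5 and 24.7 in controls 1, 3 and 4 and was missing from control 2. Among the 192 miRNAs, 9 had a lower mean than miR-667-3p. The 21 were missing from control 2 in 5 cases, from control 3 in 7, from control 4 in 9 and from control 1 in none.

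Among lists of miRNAs known from a cell type, those of blood cells held the most signal. The lists were counted over both arms on the array, against the 26.7% of all rat miRNAs that were detected in every control. Of the 11 array entries of the red blood cell list, 6 were detected in all controls, and the list summed to 6.99%, 8.46%, 9.89% and 14.7% of the signal in controls 1 to 4. The 5 missing entries were minor arms (miR-16-3p, miR-363-5p, miR-451-3p, miR-92a-1-5p and miR-92a-2-5p). miR-16-5p and miR-92a-3p are also made by many other cells. Of the platelet list 8 of 19 were detected, and it summed to between 4.53% and 5.85%, mostly through miR-24-3p, miR-22-3p and miR-23a-3p. Its miR-185-3p, miR-22-5p, miR-221-5p, miR-222-5p, miR-23a-5p, miR-24-1-5p, miR-24-2-5p, miR-27b-5p and miR-28-3p were detected in no control. In the same list miR-185-5p and miR-27b-3p had means of 431 and 348. miR-191a-3p, miR-221-3p and miR-191a-5p were dim, with means between 13.3 and 23.0. miR-222-3p was detected on 1 control array and miR-28-5p on 3. Of the leukocyte list 8 of 13 were detected, and it summed to between 1.83% and 3.13%, highest in control 4, and miR-146a-3p, miR-181a-2-3p, miR-223-5p and miR-342-5p were detected in none. After miR-223-3p its brightest members were miR-150-5p, known from mature lymphocytes, with 599, 491, 541 and 1026, and miR-342-3p, with 556, 443, 354 and 1083.

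The red cell share of the signal differed more between controls than that of the other blood lists. miR-451-5p over miR-23a-3p, a ratio used in serum work as an index of haemolysis, had log2 values of 1.11, 1.60, 2.42 and 2.43 in controls 1 to 4. Controls 3 and 4 were alike on this ratio and above controls 1 and 2. As scaled log2 signal, miR-451-5p alone was 4.62 in control 3 and 5.42 in control 4. The denominator miR-23a-3p was also high in control 4, at 2.99 (next 2.29), which lowers the ratio there. miR-16-5p over miR-23a-3p had 0.99, 1.93, 1.53 and 1.35, and so gave another order, with control 2 the highest. The part of lysed red cells in any value here was not tested.

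Each list of a solid tissue held less of the signal than any of the blood cell lists, and several were almost empty. For the platelet list this rested on miR-24-3p, miR-22-3p and miR-23a-3p. Its other miRNAs had means of at most 431, below miR-128-3p of the brain list (1364) and miR-133b-3p of the muscle list (1270). miR-126a-3p, from an intron of the endothelial gene Egfl7, had 140, 114, 253 and 179, and miR-126a-5p had 33.1, 23.9, 34.4 and 30.9. miR-126b was not detected. The hepatocyte miRNA miR-122-5p had 86.8, 228, 45.3 and 103, a spread in which control 2 was 5.03-fold above control 3. miR-192-5p and miR-215, which mark gut, liver and kidney epithelium and share a seed, had 316, 330, 160 and 447 and 305, 275, 154 and 394, with control 3 the lowest for both. The other 3 entries of that list, miR-192-3p, miR-194-3p and miR-194-5p, were not detected.

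Of the 14 entries of the skeletal and heart muscle list, 7 were detected in all controls. miR-133b-3p was by far the brightest, with 1330, 759, 1483 and 1507. It differs at 1 base from miR-133a-3p, which had only 20.2, 17.6, 23.8 and 20.9. miR-208a-5p, whose gene lies within the cardiac myosin gene Myh6, had 121, 184, 113 and 119. miR-206-3p, a miRNA of skeletal muscle, had 133, 40.3, 47.2 and 32.3, and control 1 stood above the others. miR-133b-5p, miR-206-5p, miR-208b-5p and miR-499-3p were not detected. Of 8 smooth muscle and fibroblast entries, 3 were detected: miR-214-3p with 567, 441, 423 and 287, miR-143-3p with 173, 236, 181 and 206, and miR-199a-3p with 247, 217, 195 and 64.4. miR-143-5p, miR-145-3p, miR-145-5p, miR-199a-5p and miR-214-5p were not detected.

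Only 3 of 22 entries of the brain list were detected in all controls. miR-128-3p, which is abundant in neurons, had 1372, 670, 934 and 2479, miR-212-3p had 194, 351, 164 and 272, and miR-219-5p, known from oligodendrocytes, had 23.6, 28.2, 24.8 and 40.7. The neuronal miRNAs miR-124-3p and miR-9a-5p were detected on no control array, nor were miR-124-5p, miR-128-1-5p, miR-128-2-5p, miR-132-3p, miR-132-5p, miR-137-3p, miR-137-5p, miR-138-1-3p, miR-138-2-3p, miR-212-5p, miR-219-1-3p, miR-219-2-3p and miR-9a-3p. None of the 8 pancreas entries and none of the 12 epithelial entries were detected in all controls. Of the pancreas list miR-375-3p, an islet miRNA, was detected in controls 1 and 4 at 7.22 and 12.9, and miR-216a-3p, miR-216a-5p, miR-216b-3p, miR-216b-5p, miR-217-3p, miR-217-5p and miR-375-5p in none. Of the epithelial list miR-203a-3p and miR-200a-5p were each detected in 3 controls, with signals between 7.87 and 16.03. The other 10 (miR-141-3p, miR-141-5p, miR-200a-3p, miR-200b-3p, miR-200b-5p, miR-200c-3p, miR-200c-5p, miR-203a-5p, miR-205 and miR-429) were detected in none.

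The embryonic list had 2 of 10 entries, miR-290 with 82.9, 108, 76.3 and 78.0 and miR-292-5p with 5.78, 20.1, 5.39 and 6.22. Both belong to a cluster known from embryonic stem cells in mouse, and both were highest in control 2. miR-292-3p, miR-293-3p, miR-293-5p, miR-295-3p and miR-295-5p were not detected. The list of the imprinted Dlk1-Dio3 region had 80 entries, the largest of the lists, of which 6 were detected in all controls, 4 in some and 70 in none. After miR-370-3p its brightest was miR-494-3p, with 634, 961, 647 and 1033, followed by miR-134-5p, with 50.6, 71.3, 49.1 and 40.8. The rest of the list detected in all controls were miR-539-5p, miR-341 and miR-409a-3p, with means between 26.5 and 45.3. The list does not hold all of the region. miR-770-3p, whose gene lies within Meg3 in GRCr8, had 49.0, 49.0, 56.8 and 52.4, and miR-3544, which maps on rn4 between miR-770-3p and miR-341, had 23.7, 39.8, 24.7 and 25.8.

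Most hairpins with an arm among the 192 miRNAs were represented by a single arm. The 192 miRNAs were 80 5p arms, 83 3p arms and 29 with no arm in their name. The array holds 262 pairs of names that differ only in the arm. A numbered arm, such as miR-30c-1-3p, does not pair with an unnumbered arm, such as miR-30c-5p, although both are among the 192 miRNAs. Both arms were detected in all controls for 16 pairs, only the 5p arm for 54, only the 3p arm for 55, and neither for 137. The opposite arm was on no control array for 45 of the 54 and for 52 of the 55. Among these pairs, the brightest such arms were miR-451-5p, miR-16-5p and miR-22-3p, whose opposite arms were detected in no control. Outside these pairs, miR-92a-3p, miR-24-3p and miR-19b-3p were brighter than miR-22-3p, and their numbered opposite arms were also detected in no control. No ratio is given where an arm was undetected, since the signal that it could have is not known. Without the 3 brightest miRNAs, 5p arms held 42.3% of the signal of the 192 and 3p arms 51.3%. The 3p share was above the 5p share in controls 1, 2 and 4, and in control 3 it was 45.8% against 46.8%.

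Where both arms of such a pair of names were detected, the brighter arm was as often 5p as 3p. Of the 16 pairs, 7 were brighter in the 5p arm on all 4 arrays, 7 in the 3p arm, and 2 changed sign between samples. Of the 144 miRNAs detected on all 8 arrays of the series, 9 pairs remained, with 5 brighter in the 5p and 4 in the 3p arm. The arms of let-7b and miR-140 are shown because they lie near the 2 ends of this range, again with the seed in capitals.
let-7b-5p: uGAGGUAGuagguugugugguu
let-7b-3p: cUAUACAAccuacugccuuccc
miR-140-5p: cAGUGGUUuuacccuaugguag
miR-140-3p: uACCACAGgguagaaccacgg
let-7b, of the let-7 family, had the largest excess of the 5p arm, with log2 ratios of 4.90, 3.82, 5.12 and 5.32 in controls 1 to 4, a mean of 4.79 ± 0.67 (SD, n = 4), or 27.7-fold. miR-483, whose gene lies within Igf2, had 3.49, 3.67, 3.92 and 3.51 (mean 3.65 ± 0.20, SD, n = 4), the most uniform ratio of the 16. miR-328a, miR-208a and miR-150 followed, with means of 2.87, 2.79 and 2.36.

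At the other end, miR-324 had -3.15, -3.52, -2.93 and -2.77 (mean -3.10 ± 0.33, SD, n = 4), or 8.55-fold brighter in the 3p arm. miR-140, known from cartilage, had -2.94, -2.92, -2.43 and -3.14 (mean -2.86 ± 0.30, SD, n = 4). The endothelial pair miR-126a had a mean of -2.44 ± 0.35 (SD, n = 4), the erythroid pair miR-144 -2.04 ± 0.42 (SD, n = 4) and miR-326 -1.66 ± 1.08 (SD, n = 4). Nearest to 0 were miR-1, miR-181d, miR-322, miR-142 and miR-191a. miR-1, a miRNA of striated muscle, had -1.20, 0.55, -1.11 and 0.47, and miR-322 had -1.14, -1.21, 0.65 and -0.44, so neither had a brighter arm beyond its spread. miR-181d had 0.90, 0.09, 0.30 and 0.71, and its arms were nearly equal in control 2. The hematopoietic pair miR-142 had a mean of -1.04 ± 0.45 (SD, n = 4). miR-191a had -0.55, -1.39, -2.30 and -0.02, so that its 3p excess was all but absent in control 4.

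**Figure D2:**
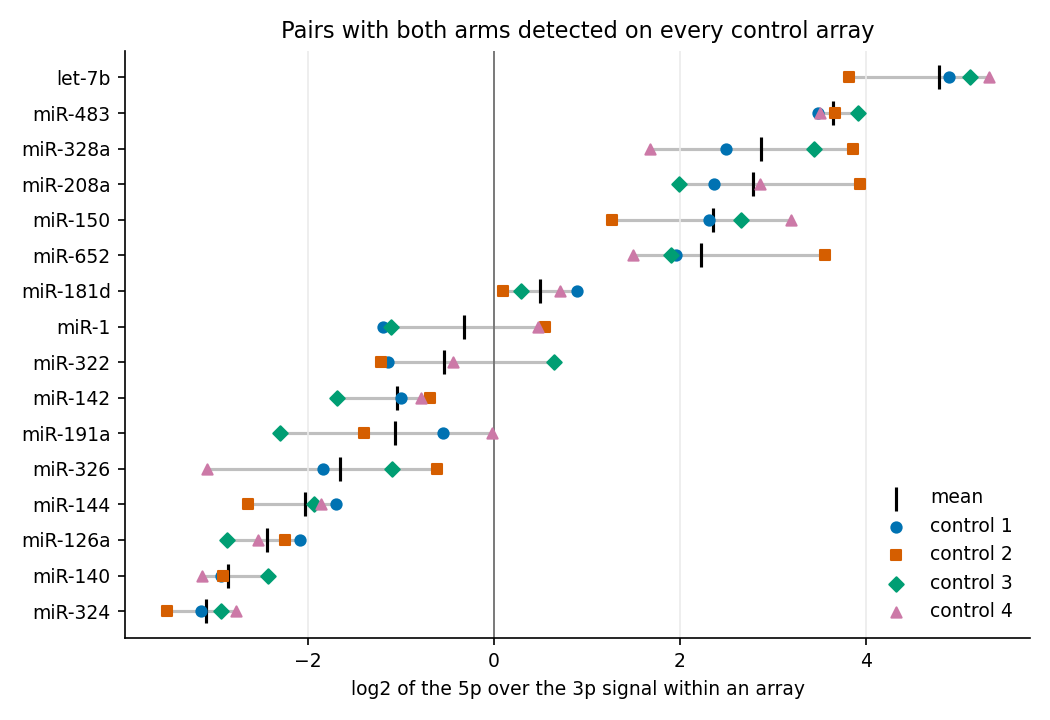
Log2 of the 5p over the 3p signal within an array (horizontal axis) for 16 pairs of names that differ only in the arm. Both arms were detected in all controls, with 1 symbol per control and the mean as a black tick. A set of 7 pairs lies right of 0 on all 4 arrays, 7 lie left, and miR-1 and miR-322 cross 0.

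The ratio of the arms was not steadier than the arms themselves. The SD of the log2 ratio had a median of 0.74 over the 16 pairs, against 0.44 for the scaled 5p level and 0.50 for the scaled 3p level. The ratio had a lower SD than both arms in 2 of the 16 pairs, miR-483 and miR-144. Both arms of miR-144 were low in controls 1 and 2 and high in controls 3 and 4. miR-144-3p had 126, 162, 367 and 441 and miR-144-5p had 38.9, 25.9, 95.7 and 121.

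Neighbouring genes accounted for 71 of the 192 miRNAs. On rn4, 190 miRNAs had a probe position, and 30 groups of 2 or more different hairpins lay on the same strand of a chromosome with gaps of at most 10 kb. They held 28.0% of the signal of the 192 miRNAs, and 15 had 3 or more miRNAs. A miRNA with more than 1 position (17 of them) counts in each cluster, and its signal cannot be divided between them. The orders of the controls given for clusters and families are those of scaled signals. In GRCr8, 94 of the 170 genes of these miRNAs lie within a protein-coding gene and 30 more within a long noncoding RNA gene only, with strand not compared.

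The miR-17-92 cluster, which promotes cell proliferation, spans chr15:99853755-99854509. All 6 of its main arms were detected, from miR-92a-3p (mean 5055) through miR-19b-3p (3540), miR-20a-5p (1518), miR-19a-3p (688) and miR-17-5p (552) to miR-18a-5p (241). Scaled, control 4 was the highest for 6 of 6, with a median deviation of 0.71 log2 units from the mean of the 4 arrays. Its paralog on chrX:139740710-139741476 had 5 miRNAs, of which miR-92a-3p, miR-19b-3p and miR-17-5p also match chromosome 15. The 2 that do not, miR-20b-5p (583, 376, 456 and 1000) and miR-363-3p (24.1, 24.1, 18.3 and 46.9), were also highest in control 4. The miR-106b-25 cluster, at chr12:17608025-17608413 within Mcm7, had another order. Control 1 was the lowest for miR-25-3p, miR-106b-5p and miR-93-5p, and the median deviations were -0.47, 0.51, -0.37 and 0.46. Over all 192 miRNAs control 4 was highest for 40.6% and control 1 was lowest for 34.9%. Control 2 was highest for 38.5% and lowest for 18.2%, and control 3 was lowest for 21.4%.

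Of the clusters with 3 or more miRNAs, that of the erythroid miR-451 and miR-144, at chr10:64129358-64129555, had the highest median SD. Its median deviations were -0.93, -0.45, 0.74 and 0.89 in controls 1 to 4, and the SDs of its 3 miRNAs were between 0.885 and 0.995. The let-7a/f/d cluster, at chr17:22119781-22121928, also varied, with control 2 the lowest for 3 of 3 and median deviations of -0.37, -1.01, 0.68 and 0.70. The cluster of miR-23a-3p, miR-27a-3p and miR-24-3p, at chr19:25638494-25638809, was highest in control 4 and lowest in control 3 for 3 of 3. Its paralog at chr17:7351018-7351765 shares miR-24-3p, and there miR-23b-3p had 397, 333, 344 and 450 and miR-27b-3p had 365, 398, 298 and 330.

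The other clusters with 3 or more miRNAs were dimmer. On chromosome X, miR-500-3p, miR-188-5p, miR-362-3p and miR-532-5p lie within Clcn5 and had means between 20.8 and 210, and 3 of the 4 were highest in control 2. The cluster of miR-125a-3p, let-7e-5p and miR-99b-3p on chromosome 1 had means between 14.1 and 157, with let-7e-5p lowest and the others highest in control 2. miR-425-5p, miR-191a-3p and miR-191a-5p on chromosome 8 had means between 13.3 and 171 and a median deviation of 0.92 in control 4. miR-30e-5p, miR-30c-5p and miR-30c-1-3p on chromosome 5 had means between 49.9 and 202. miR-1-3p, miR-1-5p and miR-133a-3p on chromosome 18 had means between 20.6 and 30.3, and miR-181d-5p, miR-181d-3p and miR-181c-5p on chromosome 19 between 19.3 and 36.4. let-7b-5p, let-7b-3p and let-7c-5p lie together on chromosome 7, with means between 23.1 and 666. On chromosome 6, miR-134-5p, miR-539-5p and miR-409a-3p were 3 of 44 array entries of that stretch of the Dlk1-Dio3 region.

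**Figure D3:**
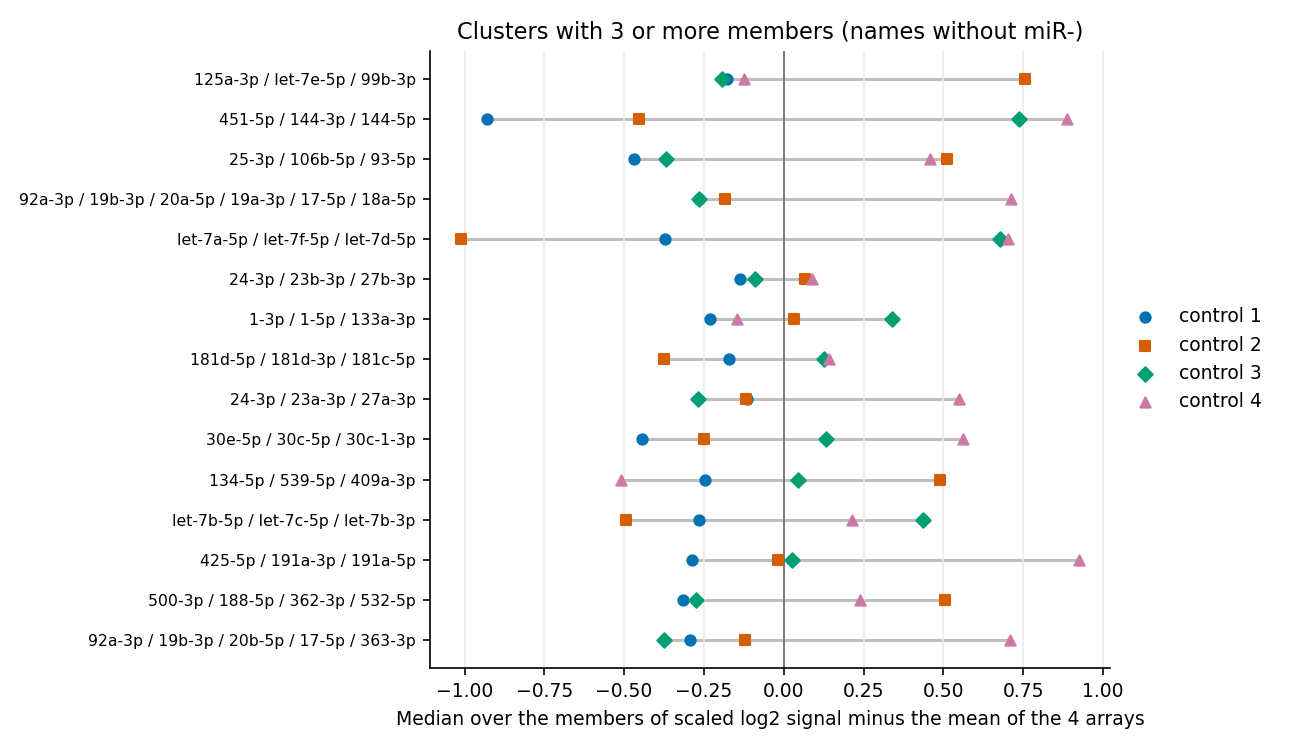
Median over the miRNAs of a cluster of the scaled log2 signal minus the mean of the 4 arrays (horizontal axis), for the 15 clusters with 3 or more miRNAs (rows, named by their members) and each control (symbols). The rows of miR-451 and miR-144 and of let-7a, let-7f and let-7d spread widest, and control 4 lies far right in the rows with miR-92a-3p.

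The 174 miRNAs with a sequence had 136 different seeds, and 21 seeds were shared by 2 or more, 59 miRNAs in all. Of the 7 seeds shared by 3 or more, 5 had every array entry with a known sequence detected, the family of miR-92a-3p had 3 of 5 and that of miR-30a-5p 3 of 4. The largest family was let-7, which holds cells in a differentiated state and represses growth genes. The 8 miRNAs with its seed are shown because they differ at few bases.
let-7i-5p: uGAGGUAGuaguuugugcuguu
let-7a-5p: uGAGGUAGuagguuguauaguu
let-7f-5p: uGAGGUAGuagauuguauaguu
let-7d-5p: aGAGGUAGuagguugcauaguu
let-7b-5p: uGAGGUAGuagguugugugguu
let-7c-5p: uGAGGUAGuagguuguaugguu
miR-98-5p: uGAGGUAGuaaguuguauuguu
let-7e-5p: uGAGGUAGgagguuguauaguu
All 8 array entries known to have this seed were detected in all controls. They summed to 3859, 2151, 5883 and 7350 in controls 1 to 4. let-7i-5p was the brightest, with 820, 648, 1224 and 1816, and let-7a-5p had 720, 336, 1182 and 1467. let-7e-5p, which differs at 1 base from let-7a-5p, was the dimmest, with 20.9, 11.8, 33.4 and 20.9. Scaled, control 2 was the lowest for 7 of the 8, and control 3 or control 4 was the highest for all 8.

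The pairs of near-identical forms varied together closely in some cases. let-7a-5p over let-7f-5p, which differ at 1 base, had log2 ratios of 0.21, 0.20, 0.22 and 0.25, while each alone had an SD above 0.80. miR-19b-3p over miR-19a-3p had 2.28, 2.35, 2.21 and 2.48. miR-107-3p over miR-103-3p, also 1 base apart, had 1.50, 2.45, 0.90 and 1.35, a much wider range. There were 24 such pairs with 1 or 2 different bases, among 30 miRNAs. Binding of one form to the probe of another was not tested.

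Of the 5 miRNAs of the miR-17 seed family all were detected, and 4 of 5 were highest in control 4. They are shown because the same seed comes from 3 clusters.
miR-20a-5p: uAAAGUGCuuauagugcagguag
miR-106b-5p: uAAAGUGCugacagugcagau
miR-93-5p: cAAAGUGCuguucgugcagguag
miR-20b-5p: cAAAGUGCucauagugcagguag
miR-17-5p: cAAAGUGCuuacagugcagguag
They summed to 4230, 3968, 3443 and 6970. The seed of miR-16-5p was shared with miR-15b-5p, miR-497-5p, miR-195-5p and miR-322-5p, all detected, with sums of 5953, 7894, 6630 and 12078. miR-15b-5p (1249, 1503, 1547 and 2806), next to miR-16-5p within Smc4, was highest in control 4, and miR-497-5p (104, 101, 77.8 and 55.2) and miR-195-5p (63.1, 47.1, 59.9 and 45.8), which lie together on chromosome 10, were lowest there. miR-322-5p (15.5, 11.2, 31.2 and 30.0) was highest in control 3.

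The miR-29 family was the steadiest of the families with 3 or more miRNAs. miR-29c-3p had 547, 467, 440 and 540 and miR-29b-3p had 283, 234, 345 and 396, and the SDs of the scaled log2 signals of the 3 were between 0.11 and 0.29. The 7 array entries of the family held 1.90%, 1.89%, 1.78% and 1.82% of the signal in controls 1 to 4. The miR-30 list had 7 of 11 entries and held between 0.418% and 0.529%, with miR-30b-5p (213, 148, 183 and 360), miR-30a-5p (199, 171, 196 and 245) and miR-30e-5p (163, 135, 193 and 317) the brightest. miR-30a-3p and miR-30d-3p were not detected. The miR-26 family had 2 of 4 entries, miR-26a-5p (605, 279, 717 and 1048) and miR-26b-5p (227, 137, 270 and 351), both lowest in control 2. Of miR-103 and miR-107, 2 of 5 entries were detected, miR-107-3p (461, 565, 410 and 907) and miR-103-3p (163, 104, 220 and 357). Counted over all array entries, with minor arms, the let-7 list had 9 of 17 detected in all controls, the miR-17-92 list 6 of 15, the list of miR-15 and miR-16 4 of 8 and the miR-29 list 3 of 7. The 4 miR-181 forms with a shared seed had means between 19.3 and 83.2.

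The SD of the scaled log2 signal had a median of 0.50 over the 192 miRNAs and ran from 0.07 to 1.23. The error that the software gives within an array had a median of between 8.83% and 9.25% of the signal on the 4 arrays. It was 7.13% for miR-29c-3p, which has 2 probes, and 5.06% for miR-877, which has 4. How far it reflects measured scatter of replicate spots was not tested. This error leaves out extraction, labelling and hybridization. The SD was a median of 3.69 times this error. It was below the error for 6 miRNAs and below 2 times the error for 34. The spread depended little on brightness, with medians of 0.49 in the 96 brighter miRNAs and 0.52 in the 96 dimmer ones. Unscaled, 108 of the 192 miRNAs differed by more than 2-fold between their lowest and highest control.

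Among the 96 brighter miRNAs, the largest spreads were those of miR-484, miR-122-5p, miR-199a-3p, let-7d-5p and miR-144-3p, with SDs between 0.90 and 1.12. miR-484 had 129, 135, 26.0 and 136 and was lowest in control 3. miR-122-5p was highest in control 2, and miR-199a-3p was lowest in control 4. let-7d-5p had 511, 226, 835 and 1138, or 0.13, -0.58, 1.18 and 1.34 as scaled log2 signal, so that controls 3 and 4 were close. The smallest spreads were those of miR-23b-3p, miR-29c-3p, miR-3584-5p, miR-1224 and miR-30a-5p, with SDs between 0.10 and 0.16. Leaving out control 2 or control 4 lowered the median spread to 0.38 and 0.37. With normexp background correction it was 0.22.

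**Figure D4:**
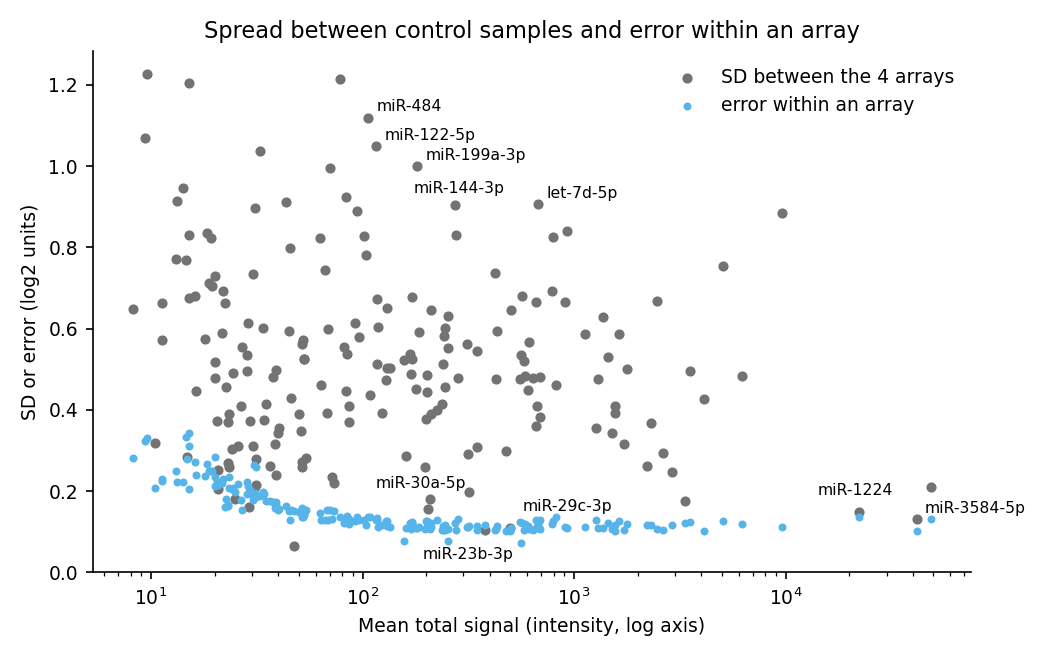
SD of the scaled log2 signal between the 4 controls (grey) and the error within an array (blue), both in log2 units, against mean total signal (log axis) for the 192 miRNAs. Most grey points lie above the blue ones at every signal, and the 10 named miRNAs are the 5 largest and 5 smallest SDs of the 96 brighter ones.

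The way a control departed from the others was related to base composition. The deviation of control 2 from the mean of the 4 arrays rose with the GC content of the mature miRNA (Spearman coefficient 0.55 over 174 miRNAs that share the arrays, given as a description). It fell in control 3 (-0.23) and in control 4 (-0.31) and was near 0 in control 1 (0.05). The 4 deviations of a miRNA sum to 0, so a rise in 1 array brings a fall among the others. The 4 coefficients are therefore not separate relations. The 174 miRNAs were divided into 4 bins by GC content. In the lowest bin, up to 40.9%, control 2 was highest for 7 of 44 miRNAs and control 4 for 21. In the highest bin, from 57.1%, control 2 was highest for 29 of 44 and control 4 for 9. The median deviation of control 2 went from -0.24 in the lowest bin through 0.01 and 0.37 to 0.60 in the highest. The low let-7 signals and the high signals of miR-125a-3p, miR-652-5p and miR-877 in control 2 lie on the 2 sides of this relation. miR-652-5p had 488, 801, 478 and 544 and a GC content of 60.9%, and let-7f-5p had 622, 291, 1018 and 1234 and 31.8%. miR-877, at 65.0%, had 507, 775, 513 and 453. miR-122-5p, at 45.5%, was also highest in control 2. G content alone was not related to the deviation of control 2 (0.10), and GC content was only weakly related to the mean signal (-0.14). The part of RNA quality, labelling or hybridization in these values was not tested.

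**Figure D5:**
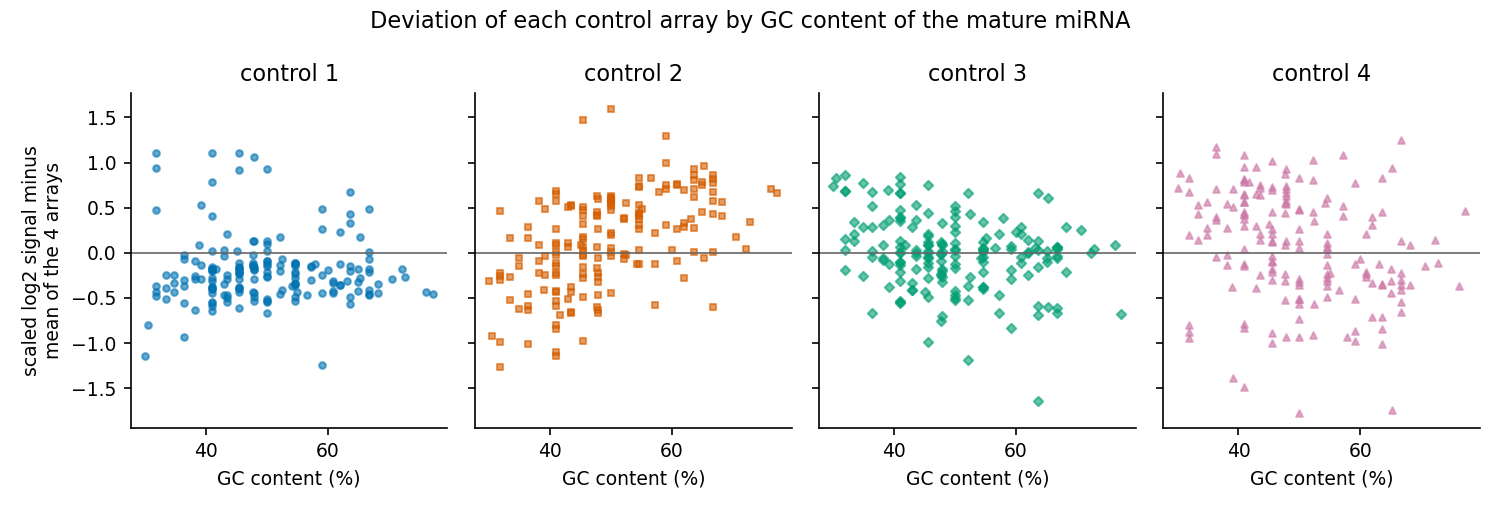
Scaled log2 signal minus the mean of the 4 arrays (vertical axis) against GC content of the mature miRNA in percent (horizontal axis), for the 174 miRNAs with a sequence and 1 panel per control. The points of control 2 rise with GC content and those of control 4 fall.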

How the data were processed

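Per the labels, serum exosomal RNA was read on Agilent Rat miRNA arrays (release 19.0). The authors deposited intensity values from feature extraction software (version 10.10.1.1), background-subtracted and not scaled, with the total signal per miRNA used here. The deposited value table equals the processed spot signal on all 15095 features of each control array. Slide and scan were shared by the 4 control arrays. For these arrays the files mark 0 saturated spots.

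Shares used unscaled signal over all 719 rat miRNAs. Spread used log2 of the signal over the array's 75th percentile of the 192 miRNAs. Sequences were matched by name to RefSeq (GRCr8), positions are those of the files (rn4), and host genes were taken by overlap in GRCr8. No test between groups was made, since only 1 group is described. Dixon's ratio over the 4 controls was used to pick out values that stand apart. The arrays of reflux esophagitis served only to find miRNAs detected on all 8 arrays. miRNAs named are the 20 brightest, the 5 dimmest, the 5 brightest on 3 arrays, extremes of spread and of arm difference, members of clusters of 3 or more, the 3 brightest of each list and cell type markers detected on no array (those of families and the 70 of the Dlk1-Dio3 list as counts). Others, such as miR-652-5p, miR-877, miR-770-3p and miR-3544, were chosen after their values were seen. The members and lists were chosen with earlier results of these data known. Alternatives covered signal, scaling, detection and leaving out each control. Procedures were tested on simulated data. R 4.3.3, limma 3.58.1, Python 3.11.15, pandas 2.3.3, numpy 2.4.6 and matplotlib 3.10.9 were used.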

Additional observations from a re-analysis of the deposited data

Results flagged for a closer look

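A value was set apart where the highest or lowest of the 4 controls lay far from the nearest other, by Dixon's ratio. Of 149 quantities compared, 12 were set apart, and chance gives about 1 in 20. These quantities include miRNAs named for their extreme spread. Over all 192 miRNAs, 12 were set apart where 9.6 are expected by chance, so single flagged values may be chance. Values are scaled log2 signals unless a share is named. In control 4, miR-23a-3p was high at 2.99 (next 2.29), miR-17-5p at 1.06 (next 0.17) and miR-20b-5p at 1.15 (next 0.32), and miR-199a-3p was low at -2.81 (next -0.92). In control 2, miR-292-5p was high at -4.07 (next -6.10), miR-150-3p at -0.73 (next -1.95), miR-326-5p at -3.61 (next -4.16) and miR-29c-3p at 0.47 (next 0.26). In control 3, miR-126a-5p was high at -3.42 (next -3.82). Among the lists, the endothelial list held 0.167% of the signal in control 3 (next 0.0882%), and the liver list held 0.135% in control 2 (next 0.0442%), through miR-122-5p. The smooth muscle and fibroblast list held only 0.209% in control 4 (next 0.465%), where miR-199a-3p was low. miR-17-5p and miR-20b-5p differ at 2 bases, and binding of one to the probe of the other was not tested.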

How the results depend on the processing

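With normexp background correction, an offset was added to every spot, and the value of a miRNA was the mean of its log2 spot signals. The 5 brightest miRNAs then held 43.1% and the 20 brightest 58.4% of the signal, and the median spread was 0.22. From the deposited value table, with spots marked as outliers kept, these shares were 60.9% and 80.8%. The same spot signals without the marked spots gave 63.3% and 81.8%. The cause of the remaining difference from the total signal was not tested. With detection required on all 8 arrays of the series, 144 miRNAs remained, with 9 arm pairs, 5 brighter in the 5p arm and 4 in the 3p arm. With detection on at least 3 controls there were 213 miRNAs. Leaving out each control in turn gave median spreads between 0.37 and 0.53, the lowest without control 4 and the highest without control 1. Other scalings gave between 0.42 (quantile) and 0.50 (none). The other counts and shares moved by less than 1.5-fold or 1 SD. Named levels were taken relative to the median miRNA. Over all alternatives 97 of their values moved by more than 1 SD and 1307 did not. Most named levels moved under normexp, where 86 moved and 22 did not. The parts of the background correction, the offset and the spot summary in this were not tested. Under normexp the mean level of miR-3584-5p (7.92) lay above that of miR-3473 (7.36), against 8.88 and 9.11 in the main setting. Without control 4, 9 named levels moved and 99 did not. Of the arm differences, 8 moved, all under normexp, where the other 8 did not, and no pair with a brighter arm changed direction. The relation of GC content with control 2, run under alternatives chosen after seeing the data, had coefficients between 0.51 and 0.56. Signals near the lowest detected value limit the dimmest miRNAs.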
